A study of Homo sapiens with 6 samples.

Results

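The 10 genes described here are the regulators and loading accessories of the MHC class II pathway: the coactivator CIITA, the RFX subunits RFX5, RFXAP and RFXANK, the NFY subunits NFYA, NFYB and NFYC, and the accessories CD74, HLA-DOA and CTSS. They are 10 of the 17579 genes in the authors' gene table. They were chosen by gene symbol with their measured differences between the libraries of the AURKA guide and the controls already known. Their own differences are therefore a description. No p from the fits made here is printed for them, though calls are stated and the authors' own q-values are given. Nothing is drawn from which of them passed a threshold.

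The study asked how Aurora kinase A and the histone methyltransferase NSD2 act in multiple myeloma, a cancer of plasma cells. RNA was sequenced from LP-1, a human myeloma line grown with 10% FBS, after infection with a virus carrying a CRISPR guide. The guide was non-targeting in the 3 control libraries and directed at AURKA, the gene of Aurora A, in the other 3, so both groups share the infection and the serum. The labels say neither whether the cells were a clone or a mixed population nor whether the replicates were separate cultures, so a p-value here reflects the variation among these samples alone, and that variation may be technical.

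MHC class II molecules are surface dimers that show peptides from endosomes to CD4+ T cells. Their genes are switched on by CIITA, which binds no DNA itself and is recruited by factors sitting on a conserved promoter module: the RFX trimer on the X box and the NFY trimer on the CCAAT or Y box. CD74, the invariant chain, fills the peptide groove of new class II dimers, CTSS (cathepsin S) cuts it down, and HLA-DOA is the alpha chain of HLA-DO, which restrains the peptide exchanger HLA-DM. Plasma cells normally shut this programme down through PRDM1, a repressor of CIITA.

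The promoters of the accessories CD74 and HLA-DOA carry an X-box-like stretch followed by CCAAT or its reverse complement. Whether these stretches form the module was not tested. Both windows come from RefSeq (GRCh38.p14, 300 bases, from 250 before to 50 after the gene's start) and are read 5′ to 3′ on the minus strand, CD74 at chr5:150412861-150413160 and HLA-DOA at chr6:33009542-33009841. They are shown because these accessories are the members whose windows hold both motifs, and the capitals mark the matches to CCNAGNAAC and to CCAAT or its reverse complement ATTGG.
CD74: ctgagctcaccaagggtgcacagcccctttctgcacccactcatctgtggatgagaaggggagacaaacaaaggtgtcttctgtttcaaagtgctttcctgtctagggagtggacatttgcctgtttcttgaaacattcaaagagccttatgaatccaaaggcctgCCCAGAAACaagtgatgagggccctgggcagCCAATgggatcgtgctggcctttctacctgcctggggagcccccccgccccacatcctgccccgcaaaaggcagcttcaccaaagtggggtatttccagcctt
HLA-DOA: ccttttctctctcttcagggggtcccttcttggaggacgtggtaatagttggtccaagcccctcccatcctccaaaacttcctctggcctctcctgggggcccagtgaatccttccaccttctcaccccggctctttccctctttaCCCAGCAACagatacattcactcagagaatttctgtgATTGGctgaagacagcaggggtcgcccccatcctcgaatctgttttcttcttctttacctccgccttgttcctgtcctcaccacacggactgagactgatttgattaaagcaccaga
In CD74 the X-box-like match CCCAGAAAC begins 84 bases before the start and CCAAT 53 bases before it, with 22 bases between them. In HLA-DOA the match CCCAGCAAC begins 104 bases before the start and ATTGG 67 bases before it, with 28 bases between them. A match is a description, not a binding site.

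Of the 10 genes, 7 had promoter windows in the RefSeq table, 13 windows in all. CCAAT, searched on both strands, was present in 7 of the 13 windows (53.8%), which belong to 5 genes, and in 34.6% of all 35116 windows. CCNAGNAAC and both motifs together were present in the 2 windows printed above, and in 4.70% and 1.71% of all windows. The motif was written from those 2 windows, so nothing is read from their holding it. The class II chain and partner genes had 10 windows, which belong to 9 genes. HLA-DRA had no window, so its promoter was not searched. Of the 10 windows, 8 held CCAAT, 2 held CCNAGNAAC (HLA-DMB and HLA-DPA1), and 1, HLA-DMB, held both. The motifs share no letters that overlap in the windows printed above.

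The libraries held 17724174 to 18523594 expected counts, and all 10 genes passed the filter on low counts that left 13138 genes for the test. AURKA itself fell from 192 ± 2.84 CPM (library-scaled counts; SD, n = 3) in the controls to 115 ± 3.86 with its guide, a log2 difference of -0.74 (SE 0.0488, edgeR quasi-likelihood adjusted p = 1.55e-06), 40.1% lower, as its label has it. NSD2 was at 376 ± 7.62 and 369.6 ± 7.15 CPM (log2 difference -0.02, adjusted p = 0.822). Control replicates 2 and 3 stood apart: their root mean square log2 distances to the rest of their group were 0.152 and 0.164, against 0.0976 to 0.112 in the other 4 libraries. Where leaving out 1 of these libraries changes a call among the 10 genes or the lists, the value or the count without it is given.

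Measured per transcript length, in the authors' TPM, the 10 genes spanned a wide range in the control cells. CD74 was highest at 3472 ± 286 TPM (SD, n = 3), followed by RFX5 at 174 ± 4.27 and RFXANK at 95.95 ± 7.78. Below them came NFYC at 41.3 ± 1.71, HLA-DOA at 30.8 ± 1.38, CIITA at 30.6 ± 2.76, NFYA at 22.2 ± 1.59 and NFYB at 16.1 ± 2.76 TPM. RFXAP, the least abundant RFX subunit, was at 5.97 ± 0.135 TPM, and CTSS was last at 0.597 ± 0.112 TPM. The 3 RFX subunits, which act as a trimer, thus had unequal mRNA levels, with RFX5 highest and RFXAP lowest in every library. Among neighbours in this order, only HLA-DOA and CIITA overlapped between libraries of the control group, and the same held with the AURKA guide.

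**Figure D1:**
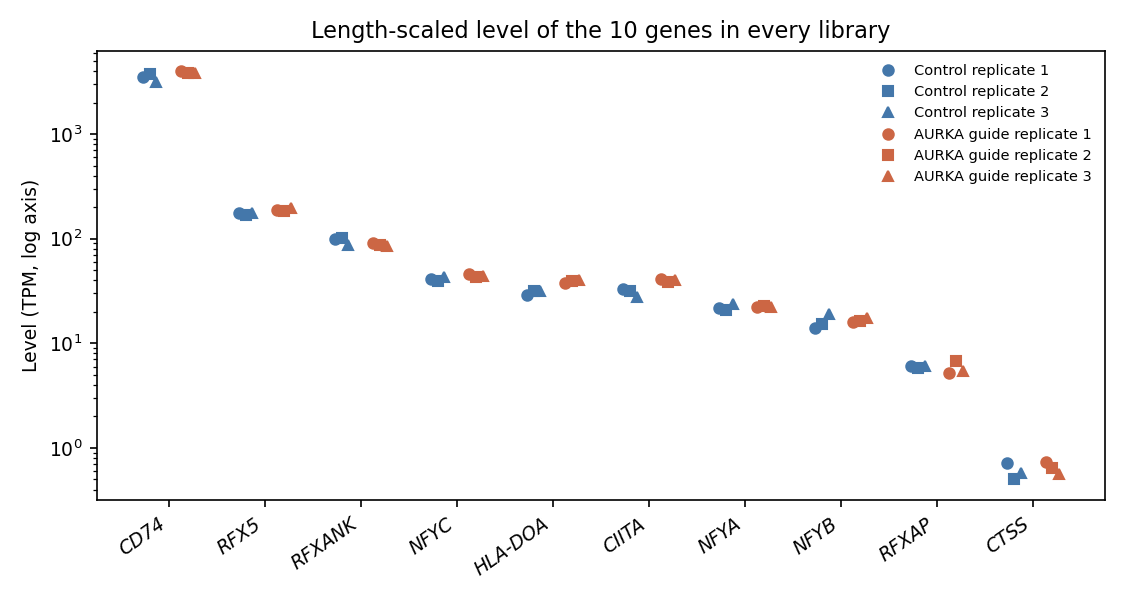
TPM (log axis) of the 10 genes in each of the 3 control and 3 AURKA guide libraries, 1 point per library, ordered by level. CD74 lies far above the rest, CTSS lies below 1 TPM, and HLA-DOA and CIITA overlap.

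CIITA, the coactivator on which class II transcription depends, was at 90.1, 83.3 and 73.1 CPM in control replicates 1, 2 and 3 and at 110.03, 101.1 and 106.03 CPM in AURKA guide replicates 1, 2 and 3. Every library with the guide was above every control, and control replicate 3 was lowest. The means were 82.2 ± 8.54 and 105.7 ± 4.49 CPM (SD, n = 3), 28.6% higher with the guide, a log2 difference of 0.36 (SE 0.0693). Without control replicate 3 the log2 difference was 0.28, and without control replicate 1 it was 0.43. PRDM1, the plasma cell repressor of CIITA, was at 88.2 ± 1.69 TPM in the same control libraries, above the 30.6 TPM of CIITA. Its means were 231 ± 2.70 CPM in the controls and 221 ± 3.60 CPM with the guide (log2 difference -0.06, edgeR adjusted p = 0.504). Whether PRDM1 acts on CIITA in these cells was not tested.

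Of the RFX subunits, RFX5, the large subunit that contacts the X box, was at 331.6, 326.8 and 325.1 CPM in the controls and at 346.02, 342.1 and 355.8 CPM with the guide. The groups did not overlap, but the distance was small: 6.14% higher, a log2 difference of 0.09 (SE 0.0438). RFXAP, a subunit needed for the complex to assemble, was at 8.76, 8.74 and 8.75 CPM in the controls and at 7.44, 9.81 and 7.70 CPM with the guide. The 3 controls were nearly identical and the guide libraries fell on both sides of them, for a log2 difference of -0.07 (SE 0.115).

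RFXANK, the ankyrin repeat subunit, was at 56.5, 60.3 and 49.6 CPM in the controls and at 51.6, 49.6 and 47.1 CPM with the guide. The groups overlapped through control replicate 3. The log2 difference was -0.16 (SE 0.0727). It depended on which control was left out: -0.24 when control replicate 3 was omitted, where the gene passed the test as lower, and -0.10 when control replicate 2 was. With a correction for GC content it was -0.08.

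The 3 NFY subunits had log2 differences between -0.02 and 0.07. NFYA, the DNA-contacting subunit, was at 68.8, 69.1 and 75.7 CPM in the controls and at 69.8, 72.0 and 68.6 CPM with the guide, a log2 difference of -0.02 (SE 0.0576) that was 0.02 without control replicate 3. NFYB, one of the histone-fold partners, was at 22.2, 24.6 and 29.6 CPM in the controls and at 24.4, 26.1 and 26.7 CPM with the guide. All guide libraries of NFYB lay inside the control range, and its log2 difference of 0.01 (SE 0.0936) became 0.14 without control replicate 3 and -0.08 without control replicate 1. NFYC, the other histone-fold partner, was at 45.5, 45.02 and 46.7 CPM in the controls and at 49.6, 47.2 and 47.5 CPM with the guide. The groups of NFYC did not overlap, with a log2 difference of 0.07 (SE 0.0579), 5.15% higher.

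Among the accessories, HLA-DOA was higher in all guide libraries. It was at 52.7, 59.2 and 55.8 CPM in the controls and at 66.7, 70.6 and 70.7 CPM with the guide. Every guide library was above every control, with means of 55.9 ± 3.27 and 69.3 ± 2.27 CPM (SD, n = 3), 24.1% higher, a log2 difference of 0.31 (SE 0.0603). The proportion of HLA-DOA to CIITA overlapped between the groups: HLA-DOA TPM per CIITA TPM was 0.889, 1.02 and 1.14 in the controls and 0.912, 1.03 and 1.001 with the guide.

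CD74, the invariant chain, was at 2692, 2935 and 2389 CPM in the controls and at 3007, 2920 and 2827 CPM with the guide. Control replicate 2 lay among the guide libraries and control replicate 3 far below them, so the groups overlapped. The means were 2672 ± 274 and 2918 ± 90.2 CPM (SD, n = 3), 9.20% higher, a log2 difference of 0.13 (SE 0.0596). Omitting control replicate 3 lowered this to 0.05. Omitting control replicate 2 raised it to 0.20 and the GC correction to 0.19, and in these fits the gene passed the test. The proportion of CD74 to CIITA was 107, 119 and 115 TPM per TPM in the controls. With the guide it was 96.9, 100.004 and 94.4, without overlap. The mean of CD74 was itself higher with the guide, and the log2 difference of CIITA was larger, at 0.36. How often such proportions separate over all genes was not counted, so nothing is read from this.

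CTSS, the protease that trims the invariant chain in antigen-presenting cells, was at 1.49, 1.07 and 1.16 CPM in the controls and at 1.47, 1.36 and 1.13 CPM with the guide. These levels rest on few reads per library, the groups overlapped, and the log2 difference of 0.09 (SE 0.240) was smaller than its error. A difference of the size seen in CIITA was not detectable in CTSS at this depth.

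**Figure D2:**
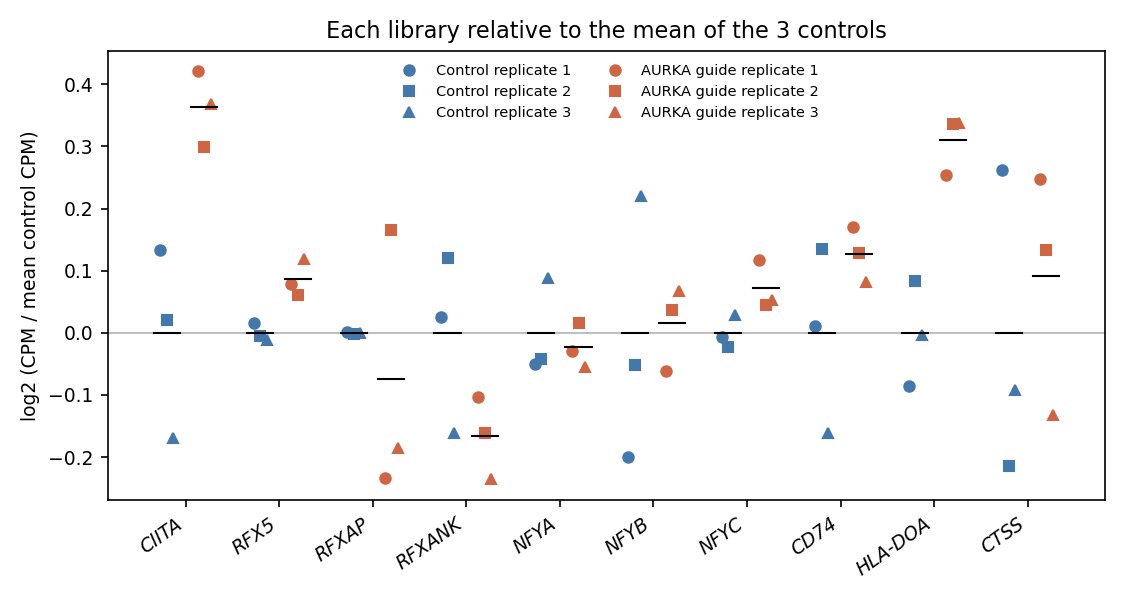
Log2 of each library's CPM over the mean CPM of the 3 controls for the 10 genes, 1 point per library, with a bar at log2 of each group's mean. CIITA and HLA-DOA have all guide libraries above all controls, while control replicate 3 is the lowest CIITA and CD74 library and the highest NFYB library.

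Side by side, 7 of the 10 genes had a positive and 3 a negative log2 difference, with a median of 0.08 against -9.41e-05 over all 13138 genes tested. CIITA and HLA-DOA passed an edgeR adjusted p of 0.05 as higher, where 0.959% of all genes tested did. None of the 10 passed as lower, where 1.07% of all genes did (2.03% passed in either direction). At an unadjusted p under 0.05, 2 were higher, as 7.54% of all genes were, and 1 lower, as 8.58% were. DESeq2 called 2 higher and 0 lower, where it called 1% and 1.13% of all genes. In 4 of the 10 every guide library was above every control, as in 10.5% of all genes, and in 0 was every guide library below, as in 10.3%. Since the choice of genes used this contrast, nothing is read from these counts.

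The calls of CIITA and HLA-DOA did not hold in every set of libraries. CIITA was not called without AURKA guide replicate 1 (log2 difference 0.33), 2 (0.39) or 3 (0.36). HLA-DOA was not called without control replicate 1 (0.27), AURKA guide replicate 2 (0.30) or AURKA guide replicate 3 (0.30). Over 16 alternatives of the processing the log2 difference ran from 0.28 to 0.43 for CIITA and from 0.27 to 0.36 for HLA-DOA.

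**Figure D3:**
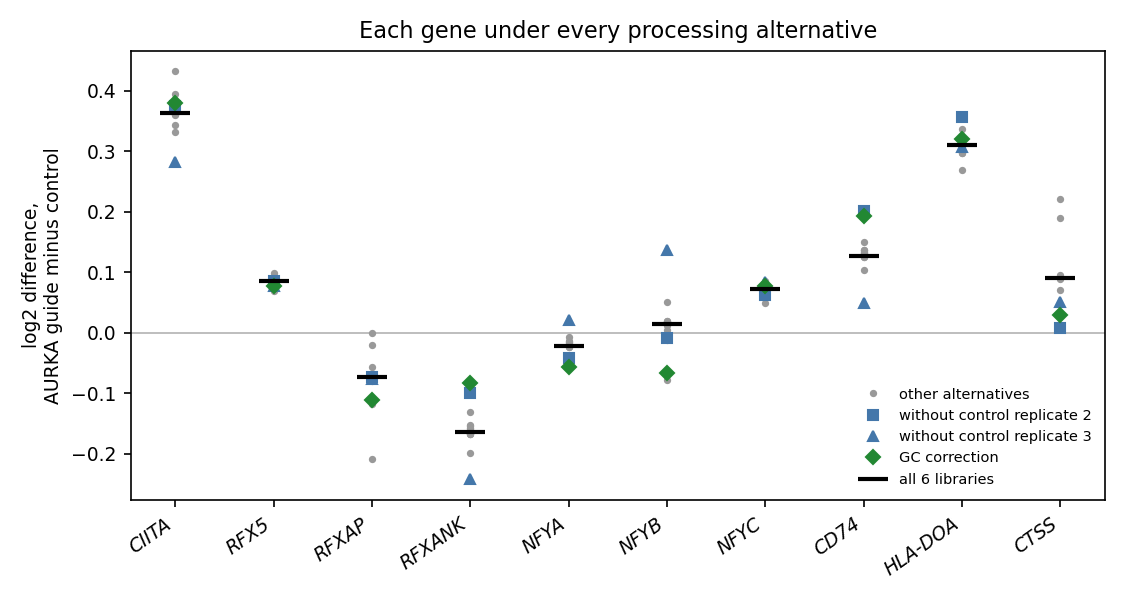
Log2 difference (AURKA guide minus control) of the 10 genes with all 6 libraries (black bar) and under each processing alternative (points). CIITA and HLA-DOA stay between 0.27 and 0.43, whereas CD74, RFXANK and NFYB spread with the omission of control replicate 2 or 3 and with the GC correction.

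The genes these factors are known to serve moved in the same comparison. Of the 10 class II chains and partners of HLA-DM and HLA-DO outside the 10 genes above, all of them tested, 7 rose and 0 fell, with a median log2 difference of 0.29, at an edgeR quasi-likelihood adjusted p under 0.05. At an unadjusted p under 0.05, 9 were higher and 0 lower, and DESeq2 called 7 higher and 0 lower, against the shares of all genes given above. These lists were also put together with results of these libraries known. HLA-DRA, the alpha chain of HLA-DR, rose from 625 ± 7.91 to 804 ± 26.0 CPM (log2 difference 0.36, SE 0.0432, adjusted p = 0.000401), and HLA-DQA1 from 45.3 ± 2.37 to 65.4 ± 1.42 CPM (0.53, SE 0.0594, adjusted p = 0.000223). HLA-DMB, a chain of the peptide exchanger, rose from 28.7 ± 1.68 to 38.0 ± 1.67 CPM (0.41, adjusted p = 0.00504).

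HLA-DRB1 (log2 difference 0.28, adjusted p = 0.00766), HLA-DPA1 (0.27, adjusted p = 0.00726), HLA-DPB1 (0.30, adjusted p = 0.02805) and HLA-DMA (0.25, adjusted p = 0.0298) also rose. HLA-DRB5 (0.39, adjusted p = 0.199), HLA-DQB1 (0.15, adjusted p = 0.180) and HLA-DOB (0.03, adjusted p = 0.933) did not pass. HLA-DOB is the partner chain of HLA-DOA in HLA-DO: it was at 8.001, 7.20 and 8.75 CPM in the controls and at 10.2, 6.81 and 7.53 CPM with the guide, on both sides of the control range. Reads of the polymorphic and near-identical DRB genes can be divided wrongly, so HLA-DRB1 and HLA-DRB5 are uncertain. HLA-DRA and HLA-DQA1 passed without each library in turn, whereas the number of list genes called was 3, 8 and 7 when control replicate 1, 2 or 3 was omitted and 4, 2 and 5 when AURKA guide replicate 1, 2 or 3 was.

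**Figure D4:**
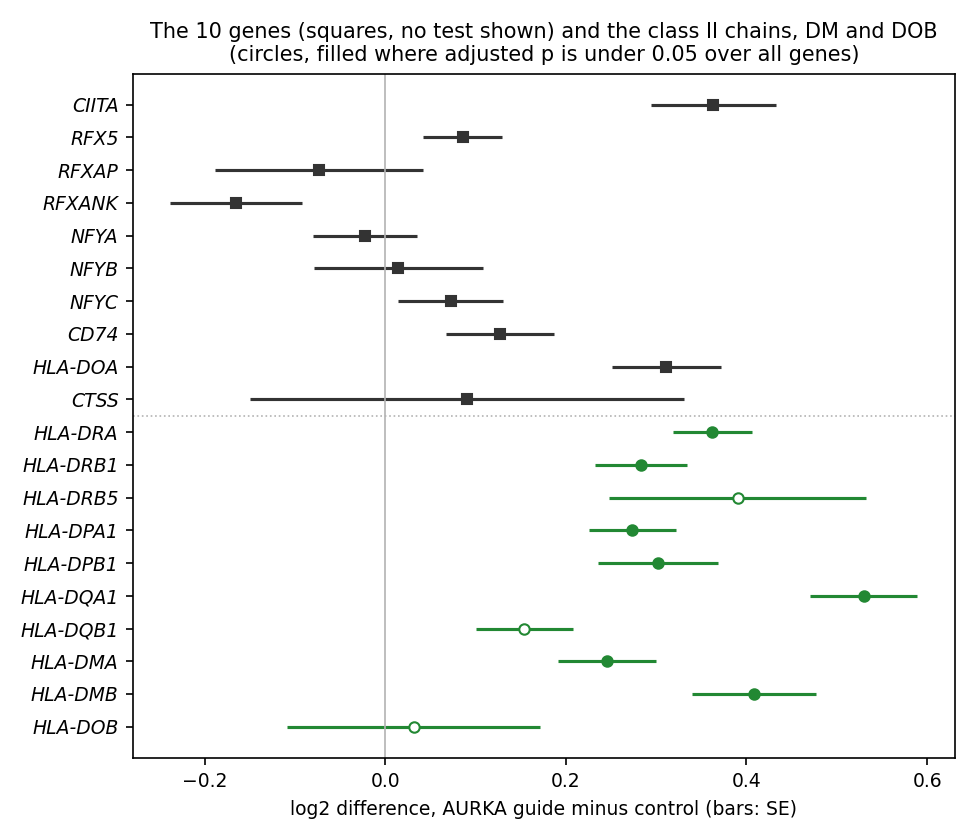
Log2 difference (AURKA guide minus control, bars SE) of the 10 genes (squares, no test shown) and of the class II chains, HLA-DM genes and HLA-DOB (circles, filled where the edgeR adjusted p is under 0.05). CIITA and HLA-DOA, at 0.36 and 0.31, lie among the filled circles, and the RFX and NFY subunits lie between -0.16 and 0.09.

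Of 13 signals and factors that lead to CIITA in other cells 11 were tested, and 0 rose (median log2 difference 0.0045). JAK1, a kinase of the interferon gamma receptor, was at 73.8 ± 4.68 and 84.4 ± 1.05 CPM (0.19, edgeR adjusted p = 0.118), and passed without control replicate 3 (adjusted p = 0.00457) and with the GC correction (adjusted p = 0.0157). At an unadjusted p under 0.05, 2 of the 11 were higher, and DESeq2 called 0 higher. The edgeR count was 2 higher without control replicate 3 and 2 with the GC correction. PAX5 and SPI1, B cell and myeloid factors, were too low to test.

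None of the 12 X2 box factors and coactivators that join RFX, NFY and CIITA on the promoter passed the edgeR test (median log2 difference 0.02). At an unadjusted p under 0.05, 1 was higher and 1 lower, and DESeq2 called 0. CCNT1, a subunit of the elongation kinase, was at 43.4 ± 3.53 and 49.5 ± 1.99 CPM (0.19, adjusted p = 0.2003), and CARM1, an arginine methyltransferase, at 149.9 ± 8.47 and 135.6 ± 3.53 CPM (-0.14, adjusted p = 0.202). Both passed without control replicate 3, at adjusted p = 0.0138 and 0.00913.

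Of 7 other RFX family genes 4 were tested, and none passed edgeR, an unadjusted p under 0.05 or DESeq2 (0 in each direction, median log2 difference -0.15). RFX3 was at 9.69 ± 1.27 and 8.41 ± 0.586 CPM (-0.21, adjusted p = 0.379). RFX1 was at 26.6 ± 2.27 and 24.1 ± 0.673 CPM (-0.14, adjusted p = 0.381), and without control replicate 3 it passed as lower (-0.21, adjusted p = 0.045).

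The endolysosomal proteases and turnover genes around CD74 and CTSS had 1 of 13 tested genes higher and 0 lower (median log2 difference 0.0045). At an unadjusted p under 0.05, 3 were higher and 2 lower, and DESeq2 called 1 higher and 0 lower. The edgeR count was 2 higher and 3 lower without control replicate 3, 1 and 1 with the GC correction, and 1 and 2 with the replicate block added to it. CTSB, the protease cathepsin B, rose from 134 ± 3.58 to 156 ± 1.23 CPM (0.22, SE 0.0477, edgeR adjusted p = 0.0258), and it did not pass without control replicate 1 (adjusted p = 0.152) or AURKA guide replicate 1 (0.101), 2 (0.158) or 3 (0.15). IFI30, the thiol reductase that unfolds antigens, was at 104.7 ± 8.93 and 91.9 ± 1.24 CPM (-0.19, adjusted p = 0.152), and passed as lower without control replicate 3 (adjusted p = 0.00305) and with the GC correction (adjusted p = 0.0493). Per length, CTSS at 0.597 TPM in the controls lay below the other cathepsins of the list, of which CTSC was at 149 ± 9.26, CTSB at 66.9 ± 3.12 and CTSV, the lowest of them, at 2.16 ± 0.198 TPM.

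Of 8 cell cycle genes with CCAAT promoters known to bind NFY, 2 rose and 0 fell (median log2 difference 0.15). TOP2A, the mitotic topoisomerase, rose from 315 ± 24.4 to 390.5 ± 11.1 CPM (0.31, SE 0.0559, edgeR adjusted p = 0.0081), and CDK1, the mitotic kinase, from 112 ± 5.90 to 133 ± 5.55 CPM (0.25, SE 0.0554, adjusted p = 0.0312). With 1 library left out, TOP2A passed in 4 of 6 fits and CDK1 in 1 of 6. Without control replicate 2, CDK1 had a log2 difference of 0.22 (edgeR adjusted p = 0.0526). The count of list genes was 5 higher and 1 lower without control replicate 3, and 4 higher with the GC correction. It was 0 without AURKA guide replicate 2 or 3 and 1 without control replicate 1, control replicate 2 or AURKA guide replicate 1. At an unadjusted p under 0.05, 6 of the 8 were higher and 1 lower (7.54% and 8.58% of all genes), and DESeq2 called 2 higher and 0 lower.

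Markers of other cell types were summed in each library. The labels call LP-1 a B lymphoblast, but of the B cell markers MS4A1 was at 0 in every library and PAX5 at or near 0. The B cell markers summed to 7.52 to 8.27 CPM in the controls and 5.69 to 6.56 CPM with the guide, without overlap, and 0 of the 2 tested passed. Most of this sum was the complement receptor CR2, at 6.94 ± 0.244 and 5.16 ± 0.470 CPM (log2 difference -0.43, edgeR adjusted p = 0.0874), with every guide library below every control. Plasma cell markers, SDC1 and XBP1 among them, summed to 3491 to 3595 CPM in the controls and 3415 to 3454 CPM with the guide, without overlap. Of these 7, only CD38 passed, higher at 210 ± 5.996 and 274 ± 1.13 CPM (log2 difference 0.38, edgeR adjusted p = 0.000416). The rest did not pass and had negative log2 differences: SDC1 -0.10, TNFRSF17 -0.12, XBP1 -0.03, MZB1 -0.14, PRDM1 -0.06 and IRF4 -0.12. For TNFRSF17, PRDM1 and IRF4 every guide library was below every control, as in 10.3% of all genes tested.

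Myeloid and dendritic cell markers summed to 42.6 to 47.1 CPM in the controls and 47.3 to 48.6 CPM with the guide, without overlap. Most of this was the integrin ITGAX, at 36.7 to 41.3 and 41.5 to 43.6 CPM, while CD14, CSF1R and CLEC9A were at or near 0, and 0 of the 3 tested passed. CD68 went the other way, at 3.39 ± 0.0812 and 2.67 ± 0.460 CPM (log2 difference -0.35), with every guide library below every control. LYZ overlapped between the groups (0.23). Single genes separated upward in 10.5% and downward in 10.3% of all genes tested. How often such sums separate was not counted, so nothing is read from them. The RNA came from the LP-1 line, and whether any such cells were among it was not tested. The T cell markers CD3E and CD2 summed to at most 0.378 CPM. In bulk RNA, a change in the number of cells that make an mRNA and a change in the amount per cell cannot be told apart.

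The transcript table splits the genes' reads among RefSeq transcripts, 22 for CIITA, 20 for NFYC, 11 for RFX5 and 1 for RFXAP and HLA-DOA. Such splits are estimates where transcripts share most of their sequence. Most CD74 reads went to the short form NM_004355.3, with 94.3% ± 0.43 in the controls and 94.2% ± 0.09 with the guide (SD, n = 3). The long form NM_001025159.2, which adds a thyroglobulin-like domain, took 4.17% ± 0.29 and 4.13% ± 0.29. The division of CD74 was thus nearly the same in all 6 libraries.

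NFYA was read mainly from NM_021705.3, its short form, with 90.3%, 88.9% and 86.7% in the controls and 93.0%, 93.8% and 83.1% with the guide. The rest was the long form NM_002505.4, and the groups overlapped. RFX5 was mostly NM_001025603.1, with 72.8% ± 3.47 in the controls and 67.2% ± 1.90 with the guide, also overlapping. RFXANK was divided between XM_005260135.3, with 66.6% in the controls and 65.2% with the guide, and NM_001278728.1, with 30.02% and 31.9%.

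CIITA was divided among many transcripts, of which 6 of 22 were above 0 in all 6 libraries. The largest share went to XR_932846.3, a predicted non-coding model, with 41.4% ± 4.19 in the controls and 43.2% ± 1.60 with the guide. XM_011522494.2 took 17.5%, 17.6% and 16.5% in the controls and 15.2%, 13.0% and 11.7% with the guide, so its share did not overlap between the groups. Its own level was 14.3 ± 1.88 and 14.2 ± 2.32 CPM (log2 difference -0.01, SE 0.192), while the gene's total was higher with the guide. It was 1 of 15 CIITA transcripts of at least 1 CPM. How often a share separates over all transcripts was not counted, so nothing is read from it. XM_011522496.2 was at 0, 0 and 0.993 CPM in the controls and 4.50, 7.41 and 4.41 CPM with the guide. Its log2 difference was 4.02 (SE 1.91), and edgeR did not call it. It met the minimum of 1 CPM only through the guide group, with means of 0.331 CPM in the controls and 5.44 CPM with the guide. This transcript was picked after its values were seen, so nothing is read from it.

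**Figure D5:**
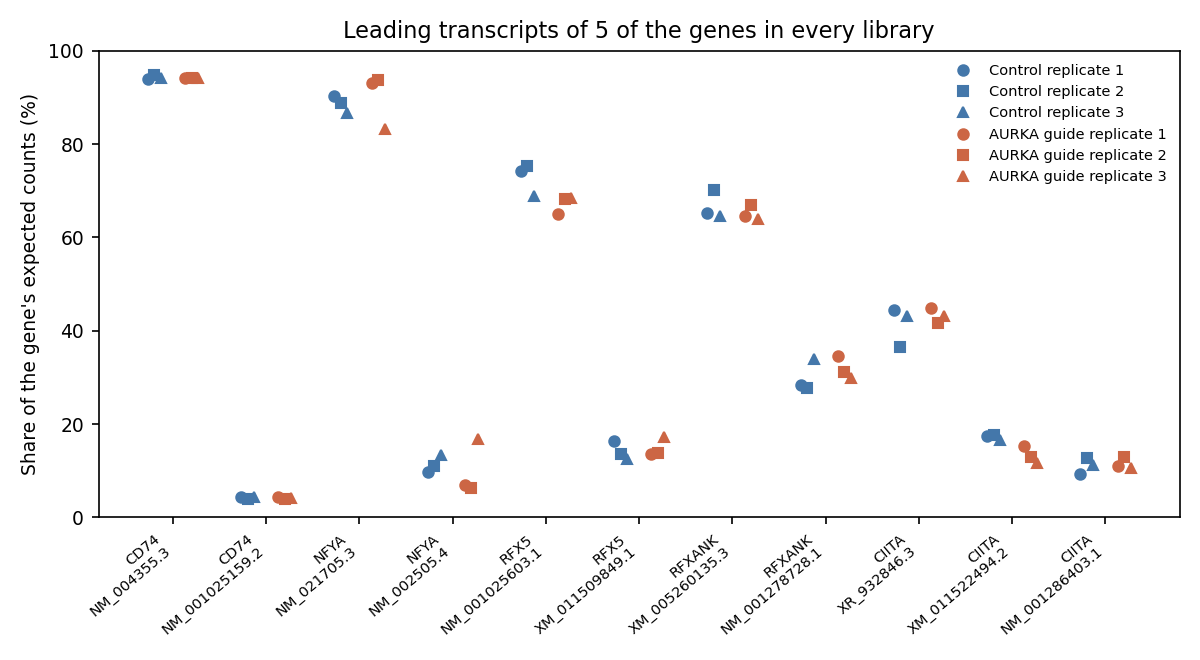
Share of each gene's expected counts (%) assigned to its leading transcripts in every library, for CD74, NFYA, RFX5, RFXANK and CIITA. The CD74 short form stays near 94% in all 6 libraries, and the share of the CIITA transcript XM_011522494.2 is lower in all guide libraries than in the controls. How often a share separates over all transcripts was not counted.

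Of the 75 transcripts of the 10 genes 49 were tested, and edgeR called 0, with 2 at an unadjusted p under 0.05. Over all 43979 transcripts tested it called 0.00227%, and 3.85% were at an unadjusted p under 0.05. DESeq2 called 1 of the 49, the HLA-DOA transcript NM_002119.3, where it called 2.04% of all transcripts, so this count is near the background.

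In the authors' deposited table of genes that differed with the AURKA guide, 229 genes in all, CIITA (log2 fold change 0.36, q = 0.00052) and HLA-DOA (0.31, q = 0.00359) are the 2 of the 10 genes listed. These 229 stand against 17579 genes measured in all. The authors compared the same groups as the fits here, so the listing is no separate evidence. Since the choice of genes used this contrast, nothing is read from it. The authors' deposited table of transcripts compares guides against AURKA and against NSD2 with the same controls, and the NSD2 guide libraries themselves were not analysed here. In it 2 of 53 transcripts of the 10 genes had q under 0.05 with the AURKA guide, where 1.55% of all transcripts did, and 2 of 53 with the NSD2 guide, where 1.78% did. The HLA-DOA transcript NM_002119.3 was among both, with the authors' deposited table giving 0.31 (q = 0.026) for AURKA and 0.45 (q = 1.12e-05) for NSD2.

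The other 2 transcripts in the authors' deposited table rest on single libraries. RFX5 transcript XM_005245406.3 had 281.93 expected counts in AURKA guide replicate 3 and 0 in the other 5 libraries, so it met the minimum of 1 CPM only through the guide group. NFYB transcript XM_005268909.4, listed for the NSD2 guide, had 100.19 in control replicate 3 and 0 in the other controls.

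For the leading transcripts, the authors' deposited table gives these log2 fold changes side by side for the AURKA and NSD2 guides, which share their controls. CD74 NM_004355.3 was at 0.12 (q = 0.957) and 0.16 (q = 0.704), and CIITA XR_932846.3 at 0.42 (q = 0.172) and 0.39 (q = 0.609). CIITA XM_011522494.2 was at -0.01 and -0.18 in the authors' deposited table, and NM_001286403.1 at 0.41 and 0.55. RFX5 NM_001025603.1 was at -0.03 and 0.06 there, and RFXANK XM_005260135.3 at -0.20 and -0.13.

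Finally, the genes whose log2 CPM followed a member most closely over the 6 libraries were listed, among 10248 genes of at least 5 CPM (10249 for CTSS). Since the libraries share group and depth, these Pearson correlations describe 6 points and carry no p. CIITA was closest to ARHGAP11B (r = 0.990), MED18 (0.987) and PTPRJ (0.982), and RFX5 to MGAT5 (0.996), COA1 (0.989) and SLC7A6 (0.986). CD74 was closest to SUN2 (0.991), IL2RG (0.984) and MCM5 (0.982), which were also lowest in control replicate 3. CTSS was closest to PLCXD1 (0.982), NPIPA2 (0.967) and UVSSA (0.965). No class II gene was among these 12.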

How the data were processed

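RNA from 3 control and 3 AURKA guide libraries was prepared by the BGISEQ500 protocol and sequenced, per the labels' protocols. BWA, Bowtie2, RSEM and the build hg19 were used, per the submitters' processing notes; the sources used here name no version or setting of them. Expected counts per gene and per transcript, which need not be whole, were deposited with FPKM and TPM values of the genes, both scaled for length and depth by the authors, per the file headers. Tables of the authors' own comparisons were deposited too, with log2 fold changes and q-values (DESeq2 per the file headers). The members and the gene lists were chosen with earlier results of these data known.

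After rounding to whole numbers, expected counts were analysed by edgeR 4.0.16 (R 4.3.3; filterByExpr, TMM, quasi-likelihood F test without covariates, Benjamini-Hochberg adjustment at 0.05 over all genes or transcripts tested). CPM are counts scaled to the TMM-adjusted library size. For 24 genes the symbol was repaired through the gene ID; 17316 IDs matched RefSeq, and 16858 genes had a GC content. Replicates differed by more than counting noise (chi-square per gene 2.24 to 10.5 in pairs of 1 group), so none is a copy of another. No molecular identifiers are recorded, so several reads may come from 1 molecule. The test was checked on simulated counts.

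Named were the 10 members; AURKA and NSD2 as checks; in each list every gene past the threshold and, if fewer than 2, those of smallest p up to 2 with a mean of at least 5 CPM; for CIITA, RFX5, CD74 and CTSS the 3 genes of highest correlation; and transcripts of at least 1 CPM. Where a list has many such items, a few are printed. Alternatives were each library left out, a replicate block, other filters, other scaling, DESeq2 1.42.0, limma-trend 3.58.1 on log2(FPKM + 1) and log2(FPKM + 0.1), and a GC correction. Promoters come from RefSeq GRCh38.p14, whereas the deposited counts use hg19, so no coordinate was matched between the builds. Some results on genes of the lists and markers are not reported here.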

Additional observations from a re-analysis of the deposited data

How the results depend on the processing

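With 3 libraries a group, small differences in RFXAP, NFYB and CTSS, the genes with the largest standard errors of the 10, were not detectable. The log2 differences of CIITA, RFX5, RFXANK, NFYC, CD74 and HLA-DOA kept their sign in all 16 alternatives, as did those of RFXAP and CTSS in the alternatives that tested them, while NFYB and NFYA changed sign in some, neither being past the threshold. The cause of the shifts below was not tested.

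Over all genes, the main counts of 126 higher and 141 lower became 394 and 414 with the GC correction and 438 and 474 with the GC correction and the replicate block. A mean of at least 10 CPM gave 90 lower. Leaving out 1 library gave 53 to 905 higher and 45 to 1129 lower, the highest without control replicate 3. Of the 10 genes, 0 to 3 were called higher and 0 to 1 lower when 1 library was left out. List genes called higher, 10 in all, were 16 with the GC correction and the replicate block and 2 to 17 with 1 library left out. List genes called lower, 1 in all, were 3 with the GC correction, 4 with the block added and 0 to 7 with 1 library left out. Of transcripts, edgeR called 1, DESeq2's Wald test 891 and the replicate block 0.

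Same-numbered libraries share only a number: the correlations of their deviations were 0.0514, -0.105 and 0.0951. The replicate block gave 178 higher and 207 lower genes and 2 of the 10 genes higher, and not every library correlated best with its own number.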
